A study of Arabidopsis thaliana with 72 samples.

Results

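BZIP60 (AT1G42990) is the Arabidopsis bZIP transcription factor of the unfolded protein response. It was followed here through every probe set that names it and no other gene, which is 1 of the 28583 probe sets on the array (probe set 13376040). The series measured total RNA of seedlings of the wild type Col-0 on 72 Affymetrix Gene 1.0 ST arrays made for this species, to compare tissues and day lengths. It has 6 groups of 12 arrays: isolated vasculature in long days, isolated vasculature in short days, isolated mesophyll in long days, isolated mesophyll in short days, long-day whole leaf and short-day whole leaf. Whole leaf samples are described in the labels as whole cotyledons. Long days had 16 h of light and 8 h of dark, and short days 8 h of light and 16 h of dark. All seedlings grew on Murashige and Skoog medium with sucrose. Sampling times are given as ZT, the hours that had passed since lights on. Each group has 1 array for ZT0, ZT4, ZT8, ZT12, ZT16 and ZT20 of day 9 and the same of day 10, and replicates 1 to 12 follow that order. The labels do not say whether the arrays came from separate cultures or how many plants were pooled, so p-values measure the spread between these arrays, which may be technical. Tests of tissue and day length used the day 9 and day 10 arrays of a group and ZT as replicates. Their error is therefore the spread between the days.

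Proteins that enter the endoplasmic reticulum (ER) are folded there by chaperones, and an overload of unfolded proteins starts the unfolded protein response. In plants it has 2 main arms. In one, the ER membrane protein IRE1 cuts BZIP60 mRNA outside the nucleus, and the rejoined mRNA encodes a factor without its membrane anchor, which enters the nucleus. In the other, the membrane factor BZIP28 moves to the Golgi and is released by proteases such as S1P. The arms raise ER chaperones and genes of ER-associated degradation. The probe set gives 1 value, so cut and uncut BZIP60 mRNA cannot be told apart, and no value here speaks of the protein.

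The deposited values are GCRMA intensities on a linear scale. Array medians were 3.29 to 3.77, and precision is limited by how many arrays there are. Of 7 measured mesophyll markers, all 7 were lower in vasculature than in mesophyll in both day lengths, among them RCA (Rubisco activase). Of 5 measured vascular markers 4 were higher in vasculature than in mesophyll in long days and all 5 in short days, with OPS at a log2 difference of 0.99 in long days. Of 3 epidermis and guard cell markers, FMA and BLUS1 were lower than in whole leaf in both isolates and both day lengths. Of all kept probe sets 5.46% and 5.94% were called lower in mesophyll than in whole leaf in long and short days. In vasculature against whole leaf 11% and 11.3% were called lower. None of the 7 mesophyll markers was called between mesophyll and whole leaf. With 11.2% and 12.2% of all kept probe sets called there, this count is not read as a property of the 7 markers. One array, long-day whole leaf at ZT0 of day 10, had a mean intensity of 54.2, against at least 67.8 on every other array.

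BZIP60 was high in isolated mesophyll and low in whole leaf, with vasculature between them. In long-day vasculature its intensity had a low of 10.9, a median of 20.9 and a high of 43.7, in long-day mesophyll 151, 277 and 468, and in long-day whole leaf 6.22, 10.2 and 12.8. In short-day vasculature the low, median and high were 12.9, 19.9 and 27.6, in short-day mesophyll 190, 339 and 557, and in short-day whole leaf 4.92, 8.16 and 9.69. Every mesophyll array lay above every array of the other tissues in its day length. All 12 short-day vasculature arrays and 11 of 12 long-day vasculature arrays lay above the highest whole leaf array of the same day length, the exception being ZT0 of day 9 at 10.9.

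**Figure D1:**
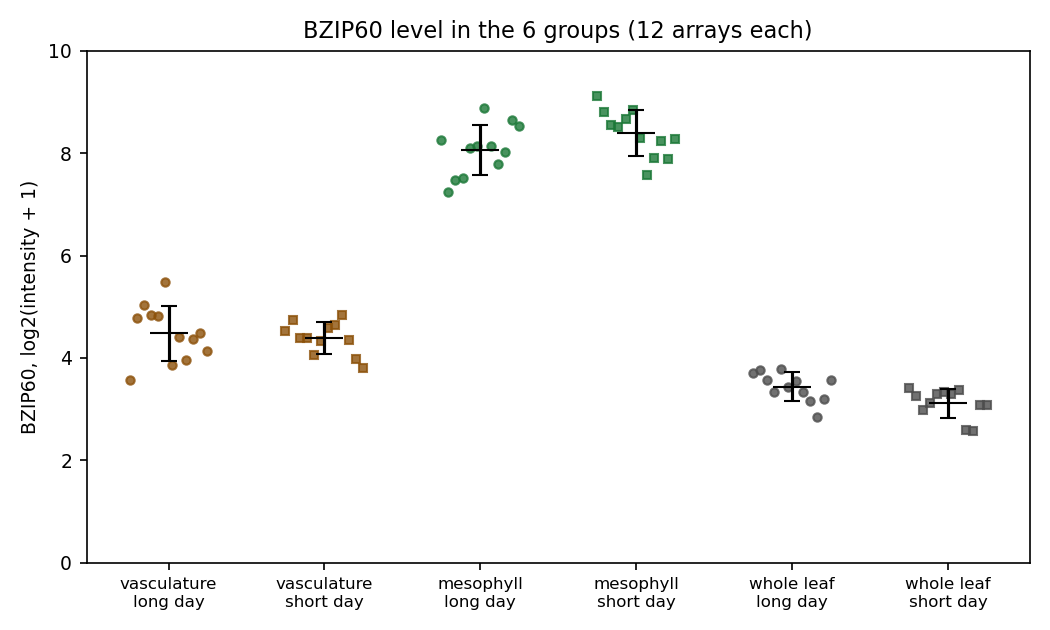
BZIP60 in the 6 groups. The vertical axis is log2(intensity + 1), each point is 1 array in time order from left to right, and black bars give the mean and SD of 12 arrays. Long-day mesophyll averaged 8.06 ± 0.49 and short-day mesophyll 8.39 ± 0.45, and no mesophyll point reaches down to a point of another tissue.

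BZIP60 was also ranked within each array among the 21827 kept probe sets. The median percentile over the arrays of a group was 75.1 (range 64.0 to 82.7) in long-day vasculature and 73.7 (67.1 to 78.1) in short-day vasculature. It was 94.3 (91.8 to 96.3) and 95.1 (92.7 to 96.8) in long-day and short-day mesophyll. In long-day and short-day whole leaf it was 62.6 (52.3 to 66.6) and 57.9 (45.6 to 61.4). These percentiles set BZIP60 against other probe sets, whose brightness also depends on their probes, so they describe its place on the array and not a number of mRNA molecules.

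Differences were tested with limma on log2(intensity + 1), averaged over the 6 ZT, with Benjamini-Hochberg adjustment over all 21827 kept probe sets. A difference was called at an adjusted p under 0.05 and a log2 size of at least 1, which is a doubling on this scale. Mesophyll exceeded whole leaf by 4.62 ± 0.13 in long days (log2 ± SE, 24.65-fold, limma adjusted p = 6.6e-15), where 11.2% of all kept probe sets were called. In short days it exceeded whole leaf by 5.27 ± 0.16 (38.7-fold, limma adjusted p = 1.2e-13), with 12.2% called. Only 160 of the 21827 kept probe sets had a higher value of that difference than BZIP60 in long days, and 141 in short days.

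Vasculature exceeded the same whole leaf arrays by 1.04 ± 0.16 in long days (2.06-fold, limma adjusted p = 2.1e-05). In short days it exceeded them by 1.27 ± 0.08 (2.41-fold, limma adjusted p = 1.4e-10). Of all kept probe sets 20.1% and 20.9% were called there. The long-day size was just past the minimum: it came to 0.99 without replicate 3 (ZT8 of day 9), 0.92 without replicate 6 (ZT20 of day 9) and 0.88 with a pseudocount of 4, all under 1. Vasculature fell below mesophyll by 3.58 ± 0.17 (long days) and by 4.01 ± 0.15 (short days; 12.0-fold and 16.1-fold, limma adjusted p = 3.7e-12 and 1.1e-12), with 25.5% and 25.1% called.

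The order of the tissues held at nearly all single times. Mesophyll over whole leaf ran from 12.0-fold to 49.0-fold over the 12 time points of long days and from 20.4-fold to 61.5-fold in short days, as ratios of intensities. Mesophyll was above vasculature at 12 of 12 time points in each day length. Vasculature over whole leaf ran from 0.904-fold to 4.48-fold in long days, above 1 at 11 of 12 time points, and from 1.74-fold to 5.45-fold in short days, above 1 at 12 of 12.

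Within single days the order stood as well. Mesophyll minus whole leaf averaged 5.06 ± 0.32 on day 10 and 4.19 ± 0.44 on day 9 in long days (log2, SD over 6 times), and 5.03 ± 0.50 on day 10 and 5.51 ± 0.13 on day 9 in short days. Vasculature minus whole leaf averaged 0.93 ± 0.45 on day 10 and 1.16 ± 0.74 on day 9 in long days, and 1.37 ± 0.56 on day 10 and 1.17 ± 0.27 on day 9 in short days.

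In bulk tissue, a change in the number of cells that hold an mRNA and a change in the mRNA per cell cannot be told apart. Per the labels' protocols, mesophyll and vasculature were freed by a short treatment with enzymes and sonication. For isolate against whole leaf, that treatment and the tissue cannot be told apart in this design.

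Genes of the early response to wounding, touch and other stress were therefore set beside BZIP60. Their list was chosen with earlier results of these data known, so a tissue order shared with BZIP60 is not independent support. Of 17 such listed genes 9 had a one-gene probe set: the zinc finger factor STZ, the calmodulin-like CML37 and CML38, the AP2/ERF factors ORA47 and ABR1, the ubiquitin ligases PUB22, PUB23 and PUB24, and AR781. In mesophyll against whole leaf 8 of 9 were higher in long days and 9 of 9 in short days, with median log2 differences of 6.79 and 7.23, against -0.08 and -0.09 over all kept probe sets. Of all kept probe sets 5.77% and 6.24% were called higher there. STZ differed by 8.44 and 9.09 in long and short days and CML38 by 6.79 and 7.44, while PUB24 had 0.38 in long days.

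In vasculature against whole leaf, 2 of the 9 were higher in long days (STZ at 4.39 and ORA47 at 2.60) and 4 in short days (STZ at 6.21, ORA47 at 4.15, CML38 at 1.36 and PUB24 at 1.04). Of all kept probe sets 9.12% were called higher there in long days and 9.59% in short days. In vasculature against mesophyll 8 of 9 were lower in each day length, where 12.8% and 12.6% of all kept probe sets were called lower. BZIP60 thus stood in the same order of tissues as the mean of this list, but not as each member. In long-day vasculature against whole leaf 7 of the 9 were not called, and their median was 0.17. PUB24 in long days had median intensities of 8.80 in vasculature, 6.45 in mesophyll and 4.85 in whole leaf. The part of the treatment or of these genes in the level of BZIP60 was not tested.

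The list's mean log2(intensity + 1) per array ran from 2.80 to 3.64 in long-day vasculature, from 7.19 to 8.36 in long-day mesophyll and from 1.94 to 2.59 in long-day whole leaf. In short days it ran from 3.11 to 3.95 in vasculature, from 7.65 to 8.83 in mesophyll and from 1.77 to 2.101 in whole leaf. No array of one tissue overlapped another tissue of its day length on this measure.

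**Figure D2:**
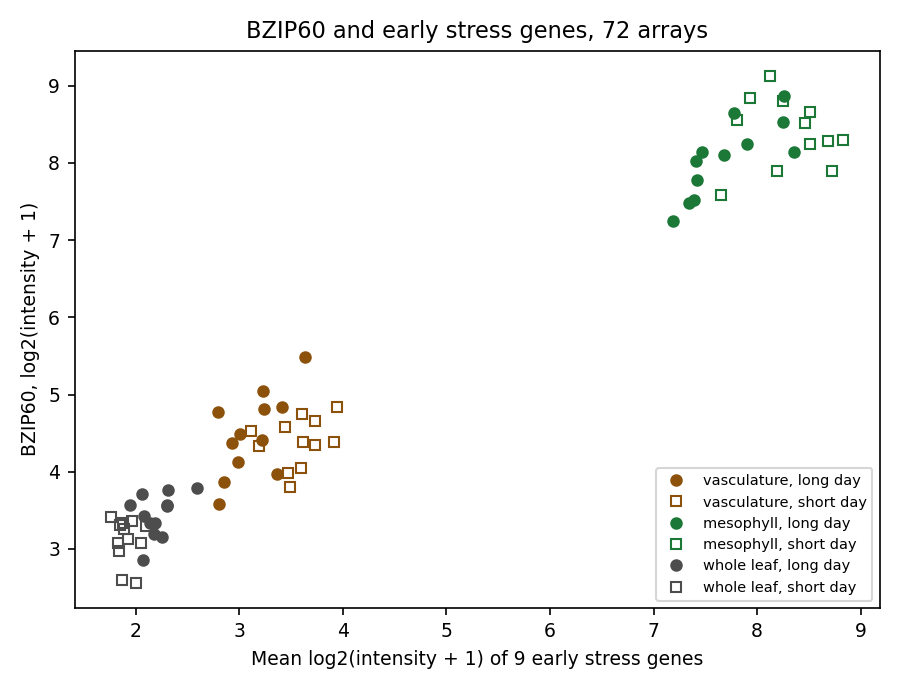
BZIP60 against the mean of 9 early stress genes, both as log2(intensity + 1), for all 72 arrays; colour gives the tissue, filled circles long days and open squares short days. Arrays fall into separate clouds by tissue, with mesophyll at 7.19 to 8.83 on the horizontal axis and all other arrays at 3.95 or below.

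Because arrays fall into clouds by tissue, the relation was described within groups only, over 12 arrays each that share their times of day. Pearson's r between BZIP60 and the list mean was 0.78 in long-day mesophyll (Spearman's rho 0.90, and r = 0.83 without the 2 arrays farthest from the median of the list). In short-day mesophyll r was -0.04 (rho -0.20, and r = -0.56 without those 2 arrays). It was 0.63 in long-day vasculature (0.63 without those 2 arrays), 0.25 in short-day vasculature (0.51), 0.39 in long-day whole leaf (0.38) and -0.13 in short-day whole leaf (-0.39). Whether these r values differ between groups was not tested.

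Apart from BZIP60 itself, 1 measured gene of the unfolded protein response, BZIP28, was called higher in mesophyll than in whole leaf. Of 46 listed genes 16 had a one-gene probe set, and all 16 passed the filter on low values. Among the sensors and factors, BZIP28 was above whole leaf in mesophyll by 1.41 ± 0.06 (long days) and 1.67 ± 0.09 (short days; limma adjusted p = 1.7e-12 and 1.3e-10). BZIP28 had median intensities of 8.99 and 10.9 in long-day and short-day vasculature, 19.4 and 19.4 in mesophyll, and 6.79 and 5.64 in whole leaf. Its groups thus stood in the same order of tissues as those of BZIP60, with smaller differences. BZIP17, a related membrane factor, had 0.03 and 0.00. S1P, the Golgi protease, had -0.80 and -0.75, under the minimum size. AT4G20310, which the list holds as S2P and which is named here by its locus, fell by 1.08 and 1.40.

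Of 5 chaperone genes none was called in mesophyll against whole leaf in either day length. They were BIP1, ATERDJ2A and ATERDJ3B (J proteins that work with BiP), AT5G07340 and the calreticulin CRT1b. Of all kept probe sets 11.2% were called there in long days and 12.2% in short days. The count is therefore not read as a property of these 5 genes. Their medians were -0.40 and -0.25 in long and short days. BIP1 had group medians between 2.44 and 2.80, near or under the low-value threshold of 2.77, so its differences are not read here. Near-identical copies exist for BIP1, CRT1b and the derlins DER2.1 and DER2.2, and these values are uncertain for that reason. SEC31A, a COPII coat protein, was likewise dim, with group medians between 2.07 and 2.49.

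Of 6 genes of ER-associated degradation (OS9, which binds misfolded glycoproteins, DER1, DER2.1, DER2.2, the ubiquitin conjugase UBC32 and AT4G29960) none was called in mesophyll against whole leaf. Their values lay between -0.88 and -0.43 in long days and between -0.89 and -0.33 in short days. Over all 16 genes, 1 was higher and 1 lower in each day length, where 5.77% of all kept probe sets were called higher and 5.46% lower for long days, and 6.24% higher and 5.94% lower for short days. The list's median was -0.62 in long days and -0.40 in short days, against -0.08 and -0.09 over all kept probe sets. The count of 1 lower gene in long days fell to 0 with a pseudocount of 4, quantile normalization, median centring or without replicate 1.

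**Figure D3:**
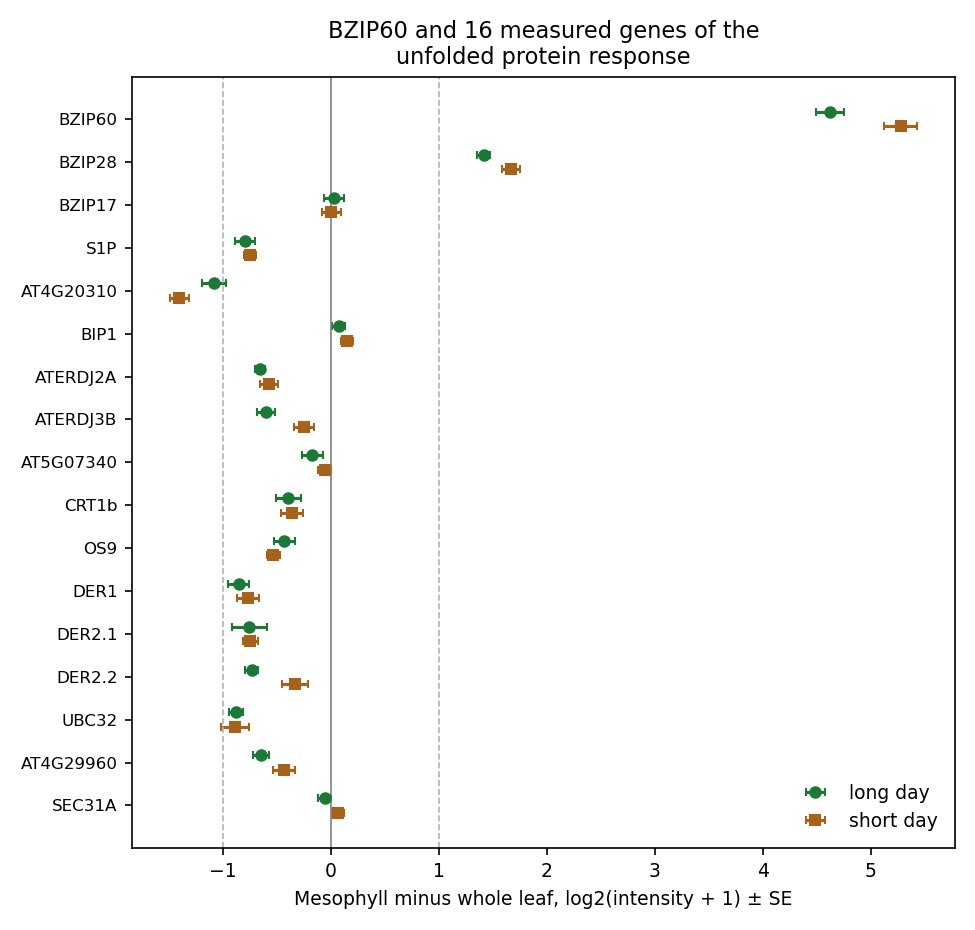
Mesophyll minus whole leaf for BZIP60 and 16 measured genes of the unfolded protein response, as log2(intensity + 1) with SE from limma; green circles are long days, brown squares short days, and dashed lines mark a size of 1. BZIP60 lies at 4.62 and 5.27, BZIP28 at 1.41 and 1.67, and most other genes between -1 and 0.

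In vasculature against whole leaf none of the 16 was called in either day length, and the medians were 0.00 and 0.10. Of all kept probe sets 9.12% were called higher and 11% lower there for long days, and 9.59% higher and 11.3% lower for short days. Under the minimum size, CRT1b had 0.79 and 0.84 and BZIP28 0.39 and 0.82. In vasculature against mesophyll 3 were higher in long days (AT4G20310 at 1.30, CRT1b at 1.19 and ATERDJ3B at 1.15) and 3 in short days (CRT1b at 1.196, AT4G20310 at 1.15 and UBC32 at 1.08). BZIP28 fell by 1.03 in long days and had -0.85 in short days. The BZIP28 call was lost with a pseudocount of 4 and without replicate 11 or 12, and with median centring the short-day counts were 1 higher and 1 lower. The shares of all kept probe sets were 12.7% higher and 12.8% lower for long days, and 12.4% higher and 12.6% lower for short days. None of the 11 chaperone and degradation genes was called lower in vasculature than in mesophyll. With 12.8% and 12.6% of all kept probe sets called lower, this is not read as a property of these 11 genes.

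Among the 45 other genes that RefSeq names as BZIP factors, 24 had a one-gene probe set and 17 were kept. In mesophyll against whole leaf, 2 were higher in long days (BZIP28 at 1.41 and BZIP53 at 1.39) and none was lower. In short days 2 were higher (BZIP28 at 1.67 and BZIP53 at 1.17) and 2 lower (BZIP61 at -1.60 and AT1G06070 at -1.01). Of all kept probe sets 5.77% were higher and 5.46% lower for long days, and 6.24% higher and 5.94% lower for short days, so counts of 2 in 17 are not read as a property of the family. BZIP60 thus had a larger mesophyll difference than each of the 17. In vasculature against whole leaf, FD, the partner of the flowering signal FT, had 1.63 and 1.87, BZIP53 1.22 and 1.53, and BZIP61 -3.48 and -5.17. In vasculature against mesophyll, FD had 2.01 and 2.26, BZIP61 -2.74 and -3.57 and BZIP34 -1.62 and -1.18.

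Averaged over both days, no day length difference of BZIP60 reached the minimum size. Whole leaf BZIP60 was above its short-day value by 0.32 ± 0.10 (log2 ± SE, 1.25-fold, limma adjusted p = 0.016) and long days lay above short days at 11 of 12 time points, yet the size was under the minimum of 1, where 1.86% of kept probe sets were called. Long-day minus short-day mesophyll was -0.33 ± 0.18 (limma adjusted p = 0.23, 95% interval -0.71 to 0.05), with 1.22% called. This average joins days of opposite sign, 0.30 on day 10 and -0.96 on day 9. It ran from -0.51 without replicate 8 to -0.15 without replicate 2. Long-day minus short-day vasculature was 0.10 ± 0.15 (limma adjusted p = 0.68, 95% interval -0.22 to 0.41), with 1.48% called. None of 18 contrasts at single times was called, with limma adjusted p between 0.12 and 0.94. From ZT0 to ZT20 the share of kept probe sets called was 1.72%, 1.34%, 2.29%, 4.54%, 6.08% and 1.35% in vasculature, 0.825%, 1.02%, 2.96%, 6.08%, 6.6% and 0.646% in mesophyll, and 3.61%, 2.9%, 4.82%, 6.37%, 8.75% and 2.69% in whole leaf. The sizes ran from -0.83 in vasculature at ZT0 to 0.74 in vasculature at ZT20. Of the 16 genes of the unfolded protein response none was called for day length in any tissue, and of the early stress genes PUB22, PUB23 and PUB24 were lower in long-day than short-day mesophyll, with log2 differences of -2.67, -1.14 and -1.02, and ORA47 and STZ were lower in long-day than short-day vasculature, with differences of -1.36 and -1.199.

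Averaged over both days, the mesophyll difference itself was smaller in long days than in short days, by 0.65 ± 0.21 (long-day minus short-day difference of -0.65, limma adjusted p = 0.04), where 12.8% of kept probe sets passed an adjusted p under 0.05. Mesophyll minus whole leaf was 5.06 in long days and 5.03 in short days on day 10, and 4.19 and 5.51 on day 9. The smaller long-day difference was thus seen on day 9 only. The call of the averaged difference was lost when any 1 of replicates 1, 2, 3, 4, 5, 6, 10 and 12 was left out, with a pseudocount of 4, with no filter and with the time point as a block (limma adjusted p = 0.059). Of the 9 early stress genes 6 were called in the same contrast, all lower, with STZ at -0.65 and PUB22 at -2.77, and the list's median was -0.65, against 0.00 over all kept probe sets. Their part in the BZIP60 value was not tested. Of the 16 genes of the unfolded protein response 1 was called, DER2.2 at -0.40. For vasculature against whole leaf it was -0.23 ± 0.19 (limma adjusted p = 0.41, 26.8% called) and for vasculature against mesophyll 0.43 ± 0.24 (limma adjusted p = 0.27, 15.4% called).

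In mesophyll, long days and short days moved opposite ways between the sampling days. In long-day mesophyll BZIP60 averaged 333 ± 94.6 on day 10 and 228 ± 64.9 on day 9, and in short-day mesophyll 265 ± 50.7 on day 10 and 434 ± 70.8 on day 9 (intensity, SD, n = 6 times each). At each of 6 ZT the day 10 array was higher in long-day mesophyll, with log2 differences of 0.30 to 0.89, and at each of 6 ZT it was lower in short-day mesophyll, with differences of -1.22 to -0.27. Long-day mesophyll on day 10 ran from 219 to 468 and on day 9 from 151 to 304, so its days overlapped, while short-day mesophyll ran from 190 to 312 on day 10 and from 366 to 557 on day 9 with no overlap.

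**Figure D4:**
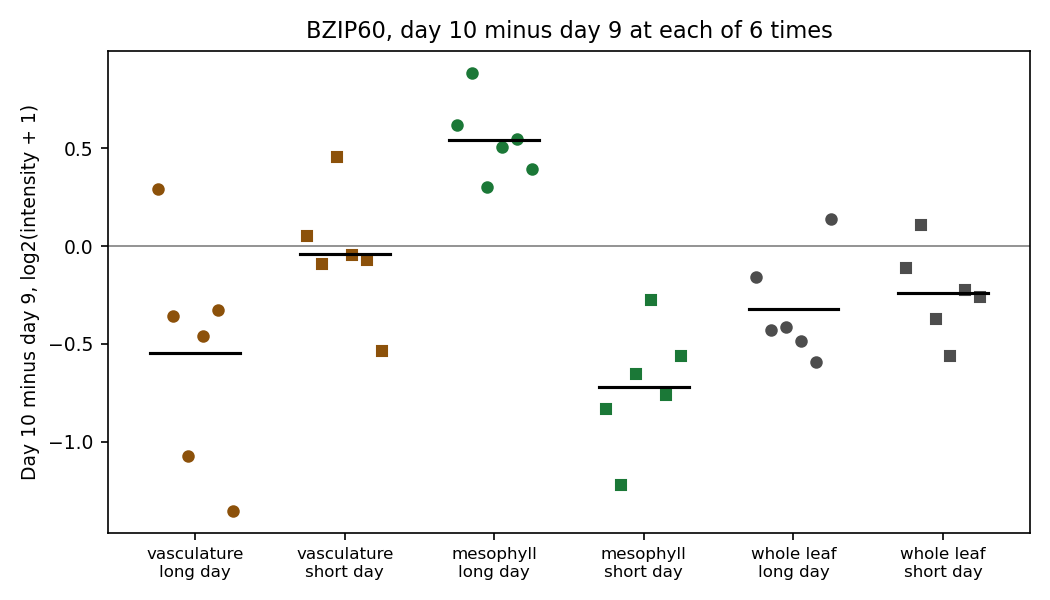
BZIP60 on day 10 minus day 9 at each of 6 ZT, as log2(intensity + 1), in each group; points are single times in the order ZT0 to ZT20 from left to right and black lines the mean. All 6 points of long-day mesophyll lie above 0 and all 6 of short-day mesophyll below 0.

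Day 10 minus day 9 was 0.54 ± 0.09 in long-day mesophyll (limma adjusted p = 0.14, 0.00916% of kept probe sets called) and -0.72 ± 0.12 in short-day mesophyll (limma adjusted p = 0.018, under the minimum size, 0.669% called). It was -0.55 ± 0.19 in long-day vasculature, -0.04 ± 0.11 in short-day vasculature, -0.32 ± 0.11 in long-day whole leaf and -0.24 ± 0.08 in short-day whole leaf, with limma adjusted p between 0.39 and 0.96 and with 0%, 0.11%, 0% and 0% called. The contrast of the day effects, long days minus short days, was added after these values were seen. It was 1.26 ± 0.15 in mesophyll (limma adjusted p = 0.00078, 5.71% called), -0.51 ± 0.24 in vasculature (limma adjusted p = 0.46, 0.0687% called) and -0.09 ± 0.14 in whole leaf (limma adjusted p = 0.93, 0% called).

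The sign of the day length difference in mesophyll differed between the days. Long-day minus short-day mesophyll averaged 0.30 ± 0.40 on day 10, with long days above at 4 of 6 times, and -0.96 ± 0.35 on day 9, with long days above at 0 of 6. Beside this, vascular markers on day 10 minus day 9 averaged -0.04 ± 0.10 in long-day mesophyll and 0.31 ± 0.15 in short-day mesophyll, where they were higher at 6 of 6 times. Mesophyll markers averaged -0.06 ± 0.08 in long-day mesophyll, lower at 5 of 6 times, and -0.15 ± 0.12 in short-day mesophyll, lower at 6 of 6. In long-day vasculature, where BZIP60 was lower on day 10 at 5 of 6 times, mesophyll markers averaged -0.46 ± 0.45, lower at 5 of 6. Vascular markers averaged 0.18 ± 0.27 in long-day vasculature, higher at 5 of 6. The part of these markers in the BZIP60 values was not tested. The 9 early stress genes averaged 0.12 ± 0.17 in long-day mesophyll and 0.25 ± 0.50 in short-day mesophyll. In short-day mesophyll their values ran from -0.48 to 1.36, and 1 was called, PUB23, higher on day 10 by 1.06. None of the 9 was called in the same contrast of day effects, where their values ran from -1.82 to 0.80. Of the 16 genes of the unfolded protein response, DER2.2 was called in that contrast, at -0.52. The part of seedling age or of separate isolations in the day difference was not tested, since each day holds 1 array per time.

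A 24 h rhythm of BZIP60 was called in short-day vasculature and, in the fit without a term for the day, in no other group. In order from ZT0 to ZT20 its 2-day mean intensity was 22.5, 24.9, 23.7, 19.6, 15.2 and 16.0, so the higher values fell in the first part of the day and the lower at ZT16 and ZT20. A cosine and sine fit gave an amplitude of 0.36 on the log2 scale with its peak at 5.08 h after lights on (limma adjusted p = 0.01), under the threshold of 0.03 used for rhythms, which 14.5% of kept probe sets passed. With the 6 times as separate levels the adjusted p was 0.065, and it was 0.030 without replicate 2 and 0.032 without replicate 11, both of which miss the threshold.

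In long-day mesophyll the mean intensities in the same order were 386, 216, 198, 222, 336 and 325, lowest in the light at ZT8 and highest at ZT0, with an amplitude of 0.48 and a peak at 20.2 h (limma adjusted p = 0.076, 13.3% called). With a term for the day the adjusted p was 0.010. In short-day whole leaf the means were 9.29, 8.95, 5.97, 6.33, 8.14 and 8.25, with an amplitude of 0.27 and a peak at 22.8 h (limma adjusted p = 0.054, 34.7% called), and the adjusted p was 0.027 with a term for the day and 0.029 without replicate 4. The remaining groups had amplitudes of 0.27 in long-day vasculature, 0.19 in short-day mesophyll and 0.21 in long-day whole leaf (limma adjusted p = 0.73, 0.74 and 0.34), where 3.16%, 12% and 9.52% of kept probe sets passed.

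**Figure D5:**
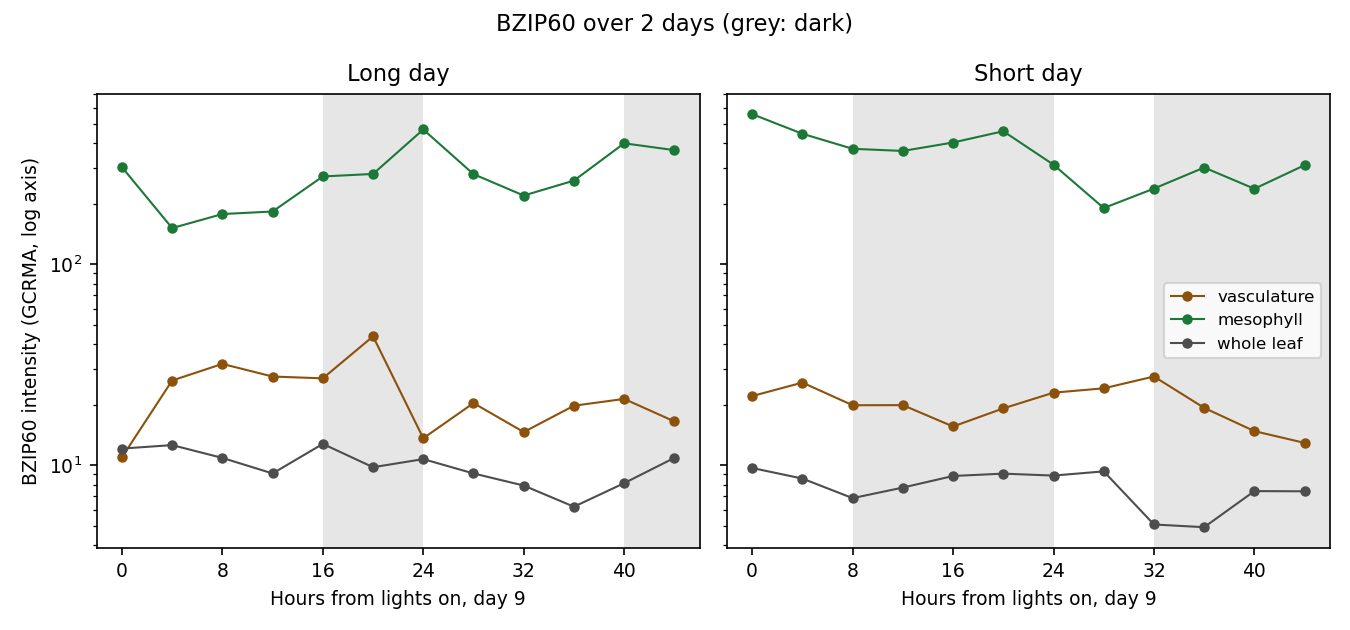
BZIP60 intensity on a log axis over the 44 h from lights on at day 9, for long days and short days, with 1 point per array and dark periods in grey. Vasculature stays between 10.9 and 43.7, mesophyll between 151 and 557 and whole leaf between 4.92 and 12.8.

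Of 9 tests of whether 2 time courses differ, 1 was called: short-day vasculature against short-day whole leaf, with peaks at 5.08 h and 22.8 h and a difference of 0.47 (limma adjusted p = 0.021, 13.3% called). Without replicate 9 (ZT8 of day 10) this difference was 0.36 and the adjusted p 0.11. The other 8 tests had limma adjusted p between 0.26 and 0.99. In long days 3.67% of kept probe sets were called for vasculature against whole leaf, 7.14% for vasculature against mesophyll and 0.861% for mesophyll against whole leaf. In short days 6.13% were called for vasculature against mesophyll and 1.35% for mesophyll against whole leaf. Between day lengths 5.24% were called in vasculature, 2.31% in mesophyll and 6.62% in whole leaf. In short-day whole leaf 11 of the 16 genes of the unfolded protein response passed the rhythm threshold (34.7% of all kept probe sets did), among them DER2.1 (amplitude 0.71), CRT1b (0.61) and S1P (0.59). In short-day vasculature 4 passed (ATERDJ2A, CRT1b, S1P and OS9), where 14.5% of all kept probe sets did. In long-day mesophyll 3 passed (DER2.1, AT4G20310 and UBC32, against 13.3%), which is near the share of all kept probe sets. The counts were 2 in short-day mesophyll (CRT1b and DER2.1, against 12%), 1 in long-day vasculature (DER2.1, against 3.16%) and 0 in long-day whole leaf (against 9.52%).

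The relation of BZIP60 to the mean of the 16 genes was also described within groups, over 12 arrays each, with no test. In mesophyll Pearson's r was 0.00 for long days (rho 0.04, and r = 0.17 without the 2 arrays farthest from the median of the list) and 0.08 for short days (rho 0.05, and r = 0.03 without them). In vasculature r was -0.32 for long days (rho -0.41, and r = -0.63 without them) and -0.32 for short days (rho -0.50, and r = -0.12 without them). In whole leaf r was 0.43 for long days (rho 0.37, and r = 0.46 without them) and 0.23 for short days (rho 0.39, and r = 0.10 without them).

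The genes whose pattern was most like that of BZIP60 were sought among the 12139 other kept probe sets of 1 gene. Over all 72 arrays AT3G62260, AT1G76600 and AT1G23710 had the highest Pearson's r (0.978, 0.978 and 0.977), followed by AT4G01090, AT4G20830, AT3G04640, AT2G34930 and AT5G48655, down to 0.970. All 8 were bright in mesophyll: AT1G23710 had medians of 9.91, 806 and 7.16 in long-day vasculature, mesophyll and whole leaf. These r values are set by the difference between tissues, since after each group's mean was subtracted the same 8 genes had r between -0.06 and 0.45. CML38, AR781, CML37, ABR1 and PUB23 of the early stress list came at ranks 10, 14, 32, 49 and 76. ORA47, STZ, PUB22 and PUB24 of that list came at ranks 117, 195, 592 and 1217. BZIP28 came at rank 101 with r = 0.93.

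With each group's mean subtracted, which leaves times, days and the technical spread of single arrays, the 5 closest were AT1G07590 (r = 0.59), the chloroplast genes rps18 and ndhJ (0.58 and 0.57), AT2G28400 (0.55) and AT1G75170 (0.55), over 72 arrays. The chloroplast genes were bright in every group, AT1G75170 was dim in every group, and AT2G28400 was at rank 95 over all arrays.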

How the data were processed

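Intensities are GCRMA values on a linear scale, per the submitters' processing notes; the deposited file was used as it stands, and the genome build is not given in the sources used here, so no coordinates are given. GCRMA corrects background, aligns the arrays' distributions and summarises each probe set, which can remove a shift shared by most genes. Values were analysed as log2(intensity + 1). The added 1 makes folds of dim genes too small. Probe sets above 2.77 (the 40th percentile) in at least 6 arrays were kept, 21827 of 28583. Genes were named from the platform table through RefSeq (assembly TAIR10.1): 16722 probe sets had 1 gene, 759 several and 11102 were not listed. limma 3.58.1 in R 4.3.3 was fitted with lmFit and eBayes on the arrays of the groups compared, with a term for each group at each ZT, and adjusted by Benjamini-Hochberg over all kept probe sets. Calls need an adjusted p under 0.05 and a size of at least 1; interactions and rhythm differences need the p alone. Rhythms, for which the submitters used HAYSTACK, were fitted as a 24 h cosine and sine at an adjusted p under 0.03. The scripts were tested on simulated data. Named genes are the measured members of the lists, some but not all of the called bZIP factors, and the 8 and 5 most similar genes. Members and lists were chosen with earlier results of these data known. Alternatives were other pseudocounts, no filter, quantile normalization, median centring, a variance trend, all 72 arrays in 1 fit, a time point block, each time point left out, and long-day whole leaf replicate 7 left out.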

Additional observations from a re-analysis of the deposited data

Results flagged for a closer look

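Averaged over both days, the mesophyll difference of BZIP60 depended on day length by a test of the difference itself, with long-day minus short-day at -0.65 (limma adjusted p = 0.04). Mesophyll minus whole leaf was 4.19 in long days and 5.51 in short days on day 9, but 5.06 and 5.03 on day 10. The call was lost with the replicate block (0.059), with no filter (0.052), with a pseudocount of 4 (0.061) and without any 1 of replicates 1, 2, 3, 4, 5, 6, 10 and 12 (range over all leave-outs -0.87 to -0.43).

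The daily time course of BZIP60 differed between short-day vasculature and short-day whole leaf by a test of the difference, at 0.47 on the log2 scale (limma adjusted p = 0.021). Without replicate 9 it was 0.36 and no longer called (0.11).

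The day 10 minus day 9 difference in mesophyll differed between long and short days by a contrast added after the values were seen, at 1.26 (limma adjusted p = 0.00078); 139 of 21827 kept probe sets had a higher value.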

How the results depend on the processing

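Of 54 results on BZIP60, 38 kept their direction and their side of the threshold under all alternatives tried, among them mesophyll against whole leaf and vasculature against mesophyll in both day lengths. With a pseudocount of 4, vasculature minus whole leaf in long days was 0.88 (limma adjusted p = 6.4e-05) and the tissue by day length interaction of mesophyll -0.57 (0.061), both no longer called. That interaction was -0.65 and not called with no filter (0.052) and with the replicate block (0.059). The rhythm of short-day vasculature was 0.34 with the 6 times as levels (0.065). A term for the day brought the rhythms of long-day mesophyll (0.48, adjusted p 0.010) and short-day whole leaf (0.27, 0.027) past the threshold. Among the lists, the early stress genes higher in short-day vasculature than whole leaf were 2 with a pseudocount of 4, against 4. With median centring, the unfolded protein response genes called in short-day vasculature against mesophyll were 1 higher and 1 lower, against 3 and 0. BZIP28, lower in long-day vasculature than mesophyll, was not called with a pseudocount of 4 or without replicate 11 or 12. The cause was not tested.

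Leaving out each time point in turn gave 13 lost calls, 1 gained and 12 changes of sign, the last in values that were not called. The ranges were 0.92 to 1.17 for vasculature minus whole leaf in long days, -0.87 to -0.43 for the interaction of mesophyll, 0.32 to 0.41 for the rhythm of short-day vasculature, 0.21 to 0.33 for that of short-day whole leaf and 0.36 to 0.54 for its difference from short-day vasculature. Long minus short days ranged from -0.032 to 0.22 in vasculature; at single times from -0.031 to 0.50 in whole leaf at ZT4, from -0.87 to 0.58, -1.55 to 0.56, -0.56 to 0.75 and -0.70 to 0.25 in mesophyll at ZT0, ZT4, ZT16 and ZT20, and from -0.23 to 0.033 and -0.87 to 0.66 in vasculature at ZT4 and ZT8. Day 10 minus day 9 in short-day vasculature ranged from -0.14 to 0.06, and the contrast of day effects in whole leaf from -0.18 to 0.0049. The time point numbers did not pair the arrays: of 54 pairs 1 had a correlation of deviations above 0.1, and the replicate block changed no other call. Leaving out long-day whole leaf replicate 7 alone changed none. Arrays have no counting depth; brightness limits BIP1 and SEC31A, which lie near background.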
